A study of Mus musculus with 12 samples.

Results

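A set of 5 transcription factor genes was examined in mouse hearts: Cebpa, Cebpb, Cebpd and Cebpg, which encode the CCAAT/enhancer-binding proteins C/EBPα, C/EBPβ, C/EBPδ and C/EBPγ, and Sp1. They were taken by gene name from a table of 53465 genes, and all 5 were among the 16101 genes with enough counts to be tested. RNA was sequenced from the hearts of 12 male mice (left ventricle, per the study's text), 3 in each of 4 groups and 1 library per mouse. All mice carried floxed Adam17 alleles on a C57BL/6J background. A17fl/fl mice were the controls, and in A17α-MHCKO littermates Cre driven by the α-MHC promoter removed exon 2 of Adam17 in cardiomyocytes, so that other cells of the heart keep the gene. From 8 weeks of age both genotypes were injected intraperitoneally 4 times, 7 days apart, with normal saline (NS) or with the anthracycline doxorubicin (DOX) at 5 mg/kg, which adds up to 20 mg/kg. Hearts were taken 4 weeks after the last injection. Adam17 encodes the sheddase that releases TNF-α from the cell surface, and the study proposed C/EBPβ and Sp1 as candidate regulators of its promoter. In cultured rat heart muscle cells the study reported that doxorubicin raised RNA and protein of both C/EBPβ and Adam17. Knockdown of C/EBPβ in those cells lowered Adam17 under doxorubicin. In the hearts of other mice the study reported more Adam17 RNA after doxorubicin. The question put to the data was therefore whether the RNA of these factors, and of Adam17, differed between the groups.

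C/EBP proteins are basic leucine zipper factors that bind DNA as homodimers or heterodimers with one another. C/EBPβ and C/EBPδ are induced by cytokines and drive acute-phase and inflammatory genes, C/EBPα is best known for adipocyte, liver and myeloid differentiation, and C/EBPγ lacks a classical activation domain and acts mainly as a dimer partner. Sp1 is a broadly expressed zinc finger factor that binds GC boxes in many promoters.

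Promoter windows of Cebpb, Sp1 and Adam17 are shown because they hold the candidate regulators and their proposed target. Each runs from 250 bases before to 50 bases after the annotated start of the RefSeq transcript (GRCm38.p6) and is written 5′ to 3′ on the strand of the gene. Capitals mark the GC box letters GGGCGG on either strand and, in the window of Sp1, the letters TTGCTAAA, whose opposite strand fits the loose C/EBP letters TTNNGNAA. The Cebpb window is chr2:167688665-167688964 on the + strand, the Sp1 window chr15:102406066-102406365 on the + strand and the Adam17 window chr12:21373583-21373882 on the - strand.
Cebpb: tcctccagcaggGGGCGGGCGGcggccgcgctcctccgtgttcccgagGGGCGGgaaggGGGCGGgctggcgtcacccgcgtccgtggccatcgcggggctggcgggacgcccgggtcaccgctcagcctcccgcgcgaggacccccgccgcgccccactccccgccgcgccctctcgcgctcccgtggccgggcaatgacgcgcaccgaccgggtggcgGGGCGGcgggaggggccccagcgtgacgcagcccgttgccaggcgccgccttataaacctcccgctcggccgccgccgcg
Sp1: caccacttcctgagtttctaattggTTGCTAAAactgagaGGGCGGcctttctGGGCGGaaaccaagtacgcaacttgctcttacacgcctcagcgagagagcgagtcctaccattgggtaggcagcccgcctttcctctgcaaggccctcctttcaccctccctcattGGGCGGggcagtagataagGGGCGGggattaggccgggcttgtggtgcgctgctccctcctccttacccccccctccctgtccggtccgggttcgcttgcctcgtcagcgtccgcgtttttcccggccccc
Adam17: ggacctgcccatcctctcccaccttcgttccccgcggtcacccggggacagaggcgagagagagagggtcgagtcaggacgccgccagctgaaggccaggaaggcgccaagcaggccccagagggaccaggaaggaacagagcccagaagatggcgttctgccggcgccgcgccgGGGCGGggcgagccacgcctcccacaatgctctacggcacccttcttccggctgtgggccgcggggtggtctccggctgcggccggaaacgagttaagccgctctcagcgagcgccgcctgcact

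The Cebpb window held 5 GC boxes, the first pair of which overlap, and the Sp1 window held 4. The windows of Adam17 and Cebpg held 1 each and that of Cebpa held 0. Of 32851 promoter windows of the same length, 35.7% held at least 1 GC box, 10.7% at least 3 and 2.71% at least 5. The palindromic C/EBP letters TTGCGCAA were in none of the 5 windows searched, those of Cebpa, Cebpb, Cebpg, Sp1 and Adam17, and in 0.183% of all windows. The loose letters TTNNGNAA were in 40.7% of all windows. GC made up 80.7% of the Cebpb window, 70.0% of that of Adam17 and 61.7% of that of Sp1. These matches are descriptions of the letters in short windows.

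Depth lay between 15950717 and 21725076 counts per library. In the first principal component of all tested genes (35.2% of the variance) A17fl/fl + NS replicate 1 had a score of -120, where the other 11 scored from -12.9 to 28.4. Its summed neutrophil markers (10 genes) were 2349 CPM (counts relative to the library total) against 9.20 to 74.3 CPM in the others, with all 10 detected. Ly6g, which defines the neutrophil, was at 0 counts in 4 of the other libraries. Its summed fibroblast markers (8554 CPM) and macrophage markers (2747 CPM) were also the highest of the series. The 9 cardiomyocyte markers were detected in all libraries, with sums of 19200 to 40760 CPM in the 6 saline hearts, lowest in A17fl/fl + NS replicate 1, and 43060 to 48940 CPM in the 6 doxorubicin hearts. In each genotype 8 of the 9 had a positive log2 fold change after doxorubicin. Summed atrial markers (5 genes) ran from 332.5 CPM in A17fl/fl + NS replicate 3 to 8362 CPM in A17α-MHCKO + NS replicate 3. In A17fl/fl + NS they were 1022 CPM in replicate 1, with 2 of the 5 detected, and 7270 CPM in replicate 2. The part of the atrial markers in the differences below was not tested. Values without A17fl/fl + NS replicate 1 are given beside the results that use the A17fl/fl + NS group.

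Adam17 was lower in the knockout hearts under both treatments. CPM scaled by the trimmed mean of M values (TMM) were 70.9, 48.7 and 43.6 in A17fl/fl + NS, 48.1, 53.2 and 48.4 in A17fl/fl + DOX, 35.3, 34.9 and 34.2 in A17α-MHCKO + NS and 27.9, 36.8 and 32.2 in A17α-MHCKO + DOX. Every knockout library was below every A17fl/fl library. The knockout level was 64.0% of the A17fl/fl level after saline and 64.7% after doxorubicin. These log2 fold changes were -0.64 ± 0.175 (SE, edgeR adjusted p = 0.313) and -0.63 ± 0.175 (adjusted p = 1), and without A17fl/fl + NS replicate 1 the first was -0.41. By RT-PCR the study reported a larger fall of Adam17 RNA in A17α-MHCKO hearts than the difference seen here. Counts per gene do not separate transcripts with and without the exon removed by Cre. Their part in the gap between these results was not tested. After doxorubicin Adam17 differed by -0.12 ± 0.174 on the log2 scale in A17fl/fl hearts (edgeR adjusted p = 0.82). That value turned to 0.11 without A17fl/fl + NS replicate 1. The study reported a rise of Adam17 in other mice, while the direction here depended on that library. The reason was not tested. In RNA from tissue of mixed cells, fewer cells of a type and less RNA per cell cannot be told apart.

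The RNA of Cebpb was the most abundant of the 5 in each of the 12 libraries when compared per length, as FPKM, fragments scaled to gene length and library total. It ran from 39.9 to 300.0 FPKM with a median of 62.1. Cebpd followed in 11 of 12 libraries (median 14.7 FPKM over all 12), and the medians of Cebpa, Cebpg and Sp1 were 5.20, 4.34 and 4.16 FPKM, with an order among these 3 that changed from library to library. Cebpb made up 75.6% to 81.3% of the summed FPKM of the 4 C/EBP genes in A17fl/fl + NS hearts and 66.5% to 71.7% in A17fl/fl + DOX hearts. In the knockout its share was 65.6% to 83.8% after saline, the highest of these in the library where Cebpd was nearly absent, and 68.3% to 71.0% after doxorubicin. The ratio of Cebpb to Cebpa FPKM was 15.9 to 34.0 in A17fl/fl + NS and 7.81 to 9.28 in A17fl/fl + DOX, without overlap. In knockout hearts this ratio was 6.8 to 18.1 after saline and 8.99 to 13.6 after doxorubicin, and these groups overlapped. No share over other pairs of genes was taken. The deposited FPKM imply a length of 1504 bases for Cebpb, as in GENCODE M21, but more than the exons of that annotation cover for the others. The lengths are 4787 against 2636 for Cebpa, 4176 against 3746 for Cebpd, 7632 against 5621 for Cebpg and 12023 against 8262 for Sp1. Shorter lengths would raise the FPKM of these other genes and lower the ratios and shares of Cebpb. Over all libraries the highest CPM was 69.7 times the lowest for Cebpd and 7.15 times for Cebpb, but 1.97 times for Cebpa, 1.56 times for Cebpg and 1.50 times for Sp1.

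**Figure D1:**
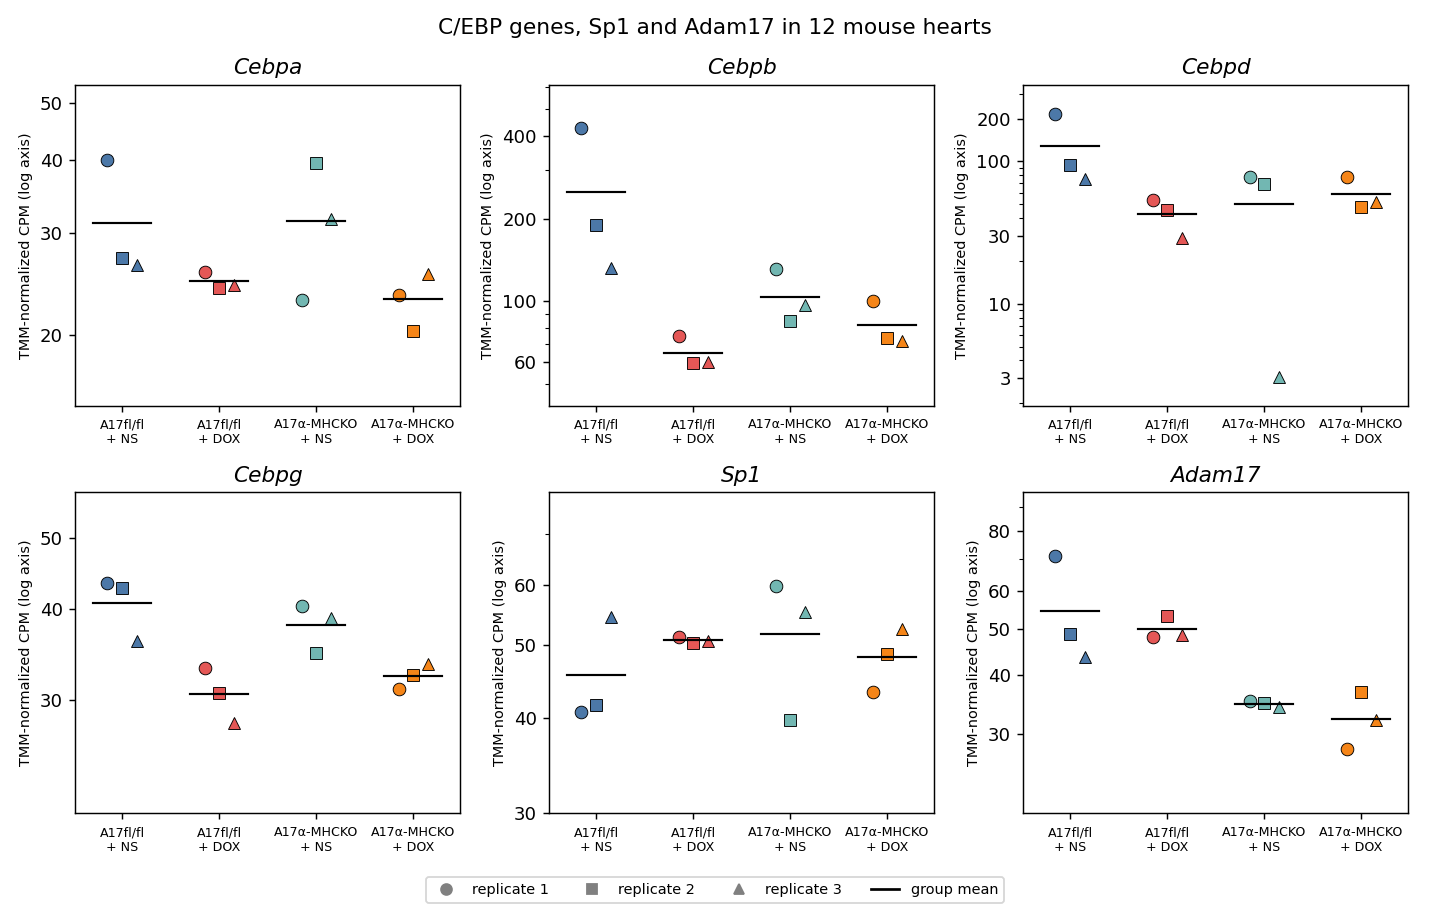
TMM-normalized CPM (log axis) of Cebpa, Cebpb, Cebpd, Cebpg, Sp1 and Adam17 in each of the 12 libraries, with symbols for the replicate number and a bar at the mean of each group. Cebpb is high in all 3 A17fl/fl + NS hearts (132 to 427 CPM), Cebpd has 1 low library at 3.08 CPM in A17α-MHCKO + NS, and Cebpg is lower in every doxorubicin heart than in every saline heart.

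Cebpb, the inducible activator, was lower in A17fl/fl hearts after doxorubicin. Its levels were 427, 189 and 132 CPM in A17fl/fl + NS and 74.8, 59.8 and 59.9 CPM in A17fl/fl + DOX. The highest doxorubicin heart was below the lowest saline heart, and the mean after doxorubicin (64.8 ± 8.66 CPM, SD, n = 3) was 26.0% of that after saline (249 ± 157 CPM, SD, n = 3). The log2 fold change was -1.94 ± 0.370 (SE) with an unadjusted p of 0.000244 in edgeR's quasi-likelihood test. The edgeR p adjusted over all 16101 genes was 0.297. It met the study's own limits, which ask for a change above 1 on the log2 scale in either direction, p below 0.05 before adjustment and, in a group compared, a mean above 1 FPKM, and which 2.82% of tested genes met and 2.22% met as lower. Without A17fl/fl + NS replicate 1 the log2 fold change was -1.31 ± 0.224 (edgeR adjusted p = 0.114), still within those limits. Over 20 alternative settings it stayed negative, between -2.25 and -1.31, and the adjusted p ran from 0.000214 with DESeq2 to 0.791. The summed immediate-early genes were 743, 294 and 245 CPM in A17fl/fl + NS and 259, 256 and 222 CPM in A17fl/fl + DOX. The summed cardiomyocyte markers were 19200, 40760 and 35780 CPM in A17fl/fl + NS and 44030, 46450 and 48940 CPM in A17fl/fl + DOX. The part of these markers and of the neutrophil markers in the Cebpb difference was not tested. For C/EBPβ RNA the study reported the opposite direction in cultured rat heart muscle cells, a different system. The reason was not tested.

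In knockout hearts the Cebpb levels of the treatments overlapped. They were 131, 84.5 and 96.8 CPM after saline and 100.1, 73.5 and 71.9 CPM after doxorubicin, a log2 fold change of -0.35 ± 0.358 (edgeR adjusted p = 0.898). The doxorubicin effect in knockout hearts minus that in A17fl/fl hearts was 1.60 ± 0.508 on the log2 scale, with an unadjusted p of 0.00908. Its edgeR adjusted p was 0.828. Of all tested genes 5.99% had an unadjusted p under 0.05 for this difference and 0 passed the adjustment. The value was 0.96 ± 0.303 without A17fl/fl + NS replicate 1 (edgeR adjusted p = 0.531). Averaged over both genotypes, an average chosen after the values were seen, the doxorubicin difference was -1.15 ± 0.256 (edgeR adjusted p = 0.223), within the study's limits, as 0.814% of tested genes were. It was -0.83 ± 0.151 without that library and then outside them.

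Between the genotypes, Cebpb was lower in the knockout after saline and not after doxorubicin. After saline the knockout mean was 41.7% of the A17fl/fl mean, with no overlap although the nearest libraries stood at 130.9 and 131.9 CPM. The log2 fold change was -1.26 ± 0.362 with an unadjusted p of 0.0049 and an edgeR adjusted p of 0.317, within the study's limits, which 2.99% of tested genes met and 2.32% met as lower. It was -0.63 ± 0.224 (edgeR adjusted p = 0.378) and outside those limits without A17fl/fl + NS replicate 1. After doxorubicin it was 0.34 ± 0.358 (edgeR adjusted p = 1), and the groups overlapped. In order of mean level the groups were thus A17fl/fl + NS, A17α-MHCKO + NS, A17α-MHCKO + DOX (81.8 ± 15.8 CPM) and A17fl/fl + DOX. The last 3 overlapped from each neighbour to the next.

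Cebpd, the other cytokine-induced member, had 215, 94.9 and 75.6 CPM in A17fl/fl + NS and 53.8, 45.9 and 29.1 CPM in A17fl/fl + DOX. These groups did not overlap, and the log2 fold change was -1.58 ± 0.791 (edgeR adjusted p = 0.497). The knockout hearts had 78.3, 69.4 and 3.08 CPM after saline and 78.1, 48.0 and 52.2 CPM after doxorubicin. The library at 3.08 CPM, A17α-MHCKO + NS replicate 3, held 53 fragments of Cebpd where the other knockout saline libraries held 1269 and 1607. It widened the spread of every Cebpd comparison. Without it the doxorubicin difference in A17fl/fl hearts was -1.57 with an unadjusted edgeR p of 0.00202 (adjusted p = 0.453), which is within the study's limits. The library was singled out by its Cebpd value, and no share of all tested genes was taken without it. It is in neither A17fl/fl group, so its removal acts there mainly through the spread estimated over all groups. The difference in knockout hearts turned from 0.24 to -0.32 without it. Without A17fl/fl + NS replicate 1 the difference in A17fl/fl hearts was -0.99 ± 0.785 (edgeR adjusted p = 0.697). The genotype differences were -1.35 ± 0.785 after saline (edgeR adjusted p = 0.583) and 0.47 ± 0.777 after doxorubicin (adjusted p = 1). The first was -0.79 without the low library and -0.76 without A17fl/fl + NS replicate 1.

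**Figure D2:**
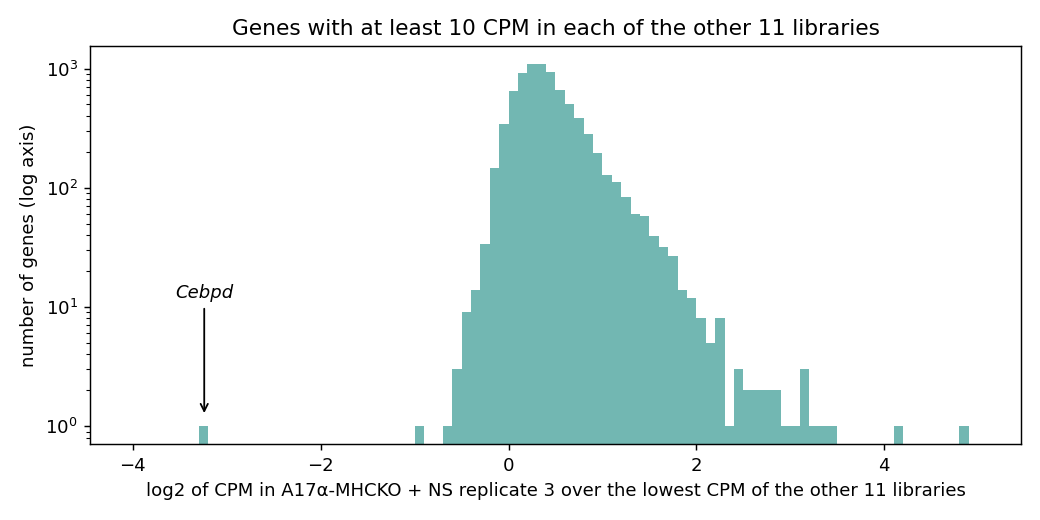
Histogram of the log2 ratio of CPM in A17α-MHCKO + NS replicate 3 to the lowest CPM of the other 11 libraries, for the 7846 genes with at least 10 CPM in each of those 11 (number of genes on a log axis). Cebpd, at 10.6% of the next lowest library, lies apart from all other genes, the nearest of which is Poldip3 at 53.3%.

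Of the 7846 genes with at least 10 CPM in each of the other 11 libraries, Cebpd was the only one below 50% of its next lowest level in that library, at 10.6%. In 4 of the other 11 libraries at least 1 gene was below 20% of its next lowest level. They were Itih5 (12.9%) and H2-Eb1 (17.5%) in A17fl/fl + NS replicate 1, where 130 genes were below 50%. The others were Cd63-ps (1.38%) in A17fl/fl + DOX replicate 1, Gm45837 (0.0%) in A17fl/fl + DOX replicate 2 and Gm27505 (0.39%) in A17α-MHCKO + NS replicate 2. Spidr, which overlaps Cebpd by 1808 bases on the opposite strand, had 83 fragments there and 37 to 163 in the other libraries.

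Cebpg, the dimer partner, had smaller differences with little spread. It had 43.4, 42.7 and 36.1 CPM in A17fl/fl + NS, 33.1, 30.7 and 27.9 CPM in A17fl/fl + DOX, 40.3, 34.8 and 38.8 CPM in A17α-MHCKO + NS and 31.1, 32.5 and 33.6 CPM in A17α-MHCKO + DOX. Each doxorubicin heart was below each saline heart, in both genotypes and across them. The summed cardiomyocyte markers did not overlap between these hearts either, being higher in each doxorubicin heart, and their part in the Cebpg difference was not tested. The log2 fold change was -0.41 ± 0.120 in A17fl/fl hearts (unadjusted p = 0.00515, edgeR adjusted p = 0.358) and -0.23 ± 0.120 in knockout hearts (edgeR adjusted p = 0.807), a difference between them of 0.19 ± 0.169 (edgeR adjusted p = 0.851). Averaged over both genotypes, doxorubicin hearts had 80.0% of the saline level. This log2 fold change was -0.32 ± 0.0847 with an edgeR adjusted p of 0.301. The exact permutation test of 6 hearts against 6 gave p = 0.00216, the smallest it can give. Of all tested genes 1.16% also showed no overlap between these 6 and 6, in either direction. The average was -0.30 ± 0.0833 (edgeR adjusted p = 0.167) without A17fl/fl + NS replicate 1.

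Cebpa, the differentiation factor, had 40.0, 27.1 and 26.4 CPM in A17fl/fl + NS, 25.7, 24.1 and 24.4 CPM in A17fl/fl + DOX, 23.0, 39.6 and 31.6 CPM in A17α-MHCKO + NS and 23.4, 20.3 and 25.4 CPM in A17α-MHCKO + DOX. The A17fl/fl groups did not overlap and the knockout groups did. The log2 fold changes after doxorubicin were -0.33 ± 0.210 in A17fl/fl hearts (edgeR adjusted p = 0.583) and -0.45 ± 0.210 in knockout hearts (edgeR adjusted p = 0.789). The first was -0.12 ± 0.192 without A17fl/fl + NS replicate 1. The genotypes differed by 0.01 ± 0.209 after saline and -0.10 ± 0.210 after doxorubicin (edgeR adjusted p = 0.992 and 1), and the saline value was 0.23 ± 0.192 without that library. Summed adipocyte markers were 0.752 to 90.3 CPM in A17fl/fl + NS and 17.9 to 115 CPM in the other groups.

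Sp1 had 40.8, 41.7 and 54.3 CPM in A17fl/fl + NS, 51.2, 50.2 and 50.7 CPM in A17fl/fl + DOX, 59.8, 39.8 and 55.2 CPM in A17α-MHCKO + NS and 43.3, 48.6 and 52.5 CPM in A17α-MHCKO + DOX. The groups overlapped in each of the 4 comparisons. The log2 fold changes were 0.15 ± 0.168 for doxorubicin in A17fl/fl hearts, -0.10 ± 0.168 for doxorubicin in knockout hearts, 0.18 ± 0.168 for the knockout after saline and -0.07 ± 0.168 for the knockout after doxorubicin (edgeR adjusted p = 0.766, 0.939, 0.758 and 1). Without A17fl/fl + NS replicate 1 the doxorubicin value in A17fl/fl hearts was 0.07 ± 0.178 and the knockout value after saline 0.10 ± 0.177. Averaged over both genotypes, doxorubicin differed by 0.03 ± 0.119 on the log2 scale, and by -0.01 ± 0.119 without that library.

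**Figure D3:**
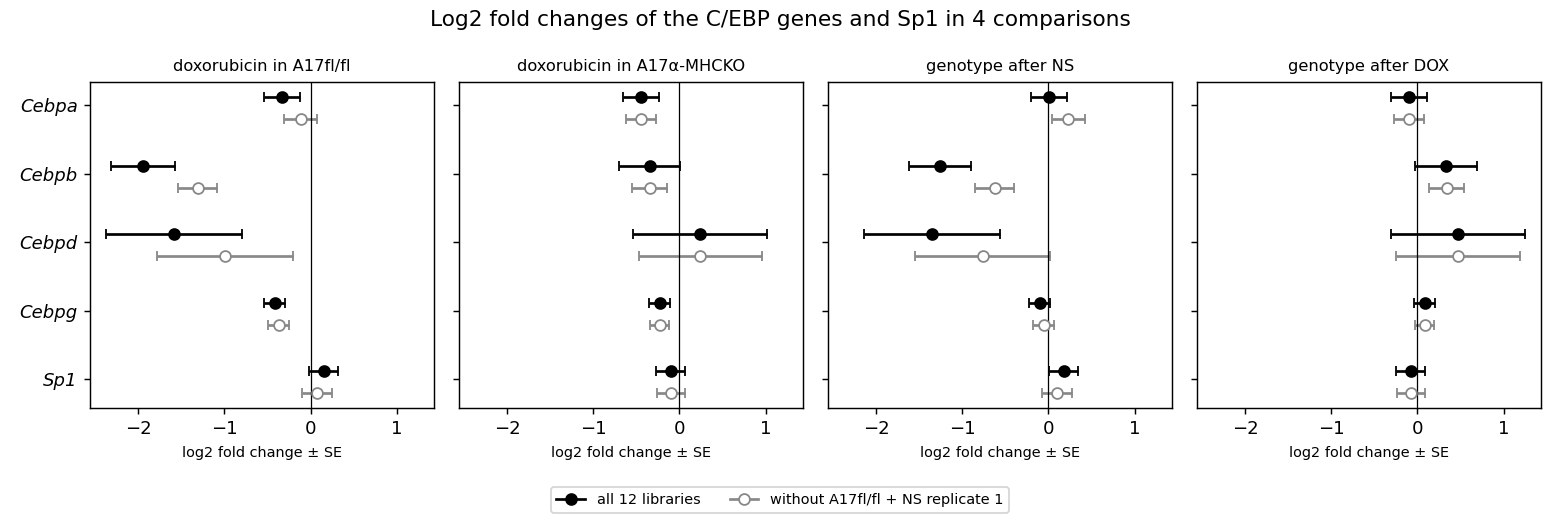
Log2 fold changes with approximate standard errors of Cebpa, Cebpb, Cebpd, Cebpg and Sp1 in 4 comparisons, from all 12 libraries (filled) and without A17fl/fl + NS replicate 1 (open). The Cebpb value for doxorubicin in A17fl/fl hearts moves from -1.94 to -1.31 and that for the knockout after saline from -1.26 to -0.63.

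Counted over the 5 genes, 4 did not overlap between saline and doxorubicin in A17fl/fl hearts, all lower after doxorubicin. Of all tested genes 13.3% did not overlap there. This share and those for the other comparisons count both directions, and the shares of lower genes alone were not taken. In knockout hearts 1 of the 5 did not overlap (Cebpg), against 16.9% of all tested genes. Between the genotypes 1 of the 5 did not overlap after saline (Cebpb), against 10.9%, and all 5 overlapped after doxorubicin, where 14.1% of all tested genes did not. With 3 hearts against 3 the exact permutation test cannot go below p = 0.1. Of the 5, 0 passed an adjusted p under 0.05 in edgeR for doxorubicin in A17fl/fl hearts, as did 0 of all tested genes, although 2 of the 5 and 10.7% of all genes had an unadjusted p under 0.05. DESeq2 called 1 of the 5 there (Cebpb), and the share of all tested genes that it called was not taken. These comparisons share their control groups, so their values are not independent of one another.

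The relation of each factor to Adam17 was taken within a genotype, over 6 hearts each, because the knockout itself sets the Adam17 level. None of these 10 relations passed the adjustment for their number (permutation tests, exact and two-sided). In A17fl/fl hearts Cebpb and Adam17 had a Pearson r of 0.636 (exact p = 0.164, adjusted 0.42) and a Spearman rho of 0.2 (exact p = 0.714, adjusted 0.892). Without the libraries farthest from the Cebpb median, A17fl/fl + NS replicates 1 and 2, r was -0.878, so the positive value rests on those libraries. Sp1 ran against Adam17 in A17fl/fl hearts, with r of -0.709 (exact p = 0.0764, adjusted 0.42) and rho of -0.943 (exact p = 0.0167, adjusted 0.167). Without the 2 libraries farthest from its median, r was -0.91. In knockout hearts Cebpb had r of -0.0965 (exact p = 0.838) and rho of -0.0286 (exact p = 1), and Sp1 had r of 0.31 (exact p = 0.583) and rho of 0.2 (exact p = 0.714). The 6 hearts of a genotype come from both treatments, and 3 hearts are too few for a relation within a treatment.

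**Figure D4:**
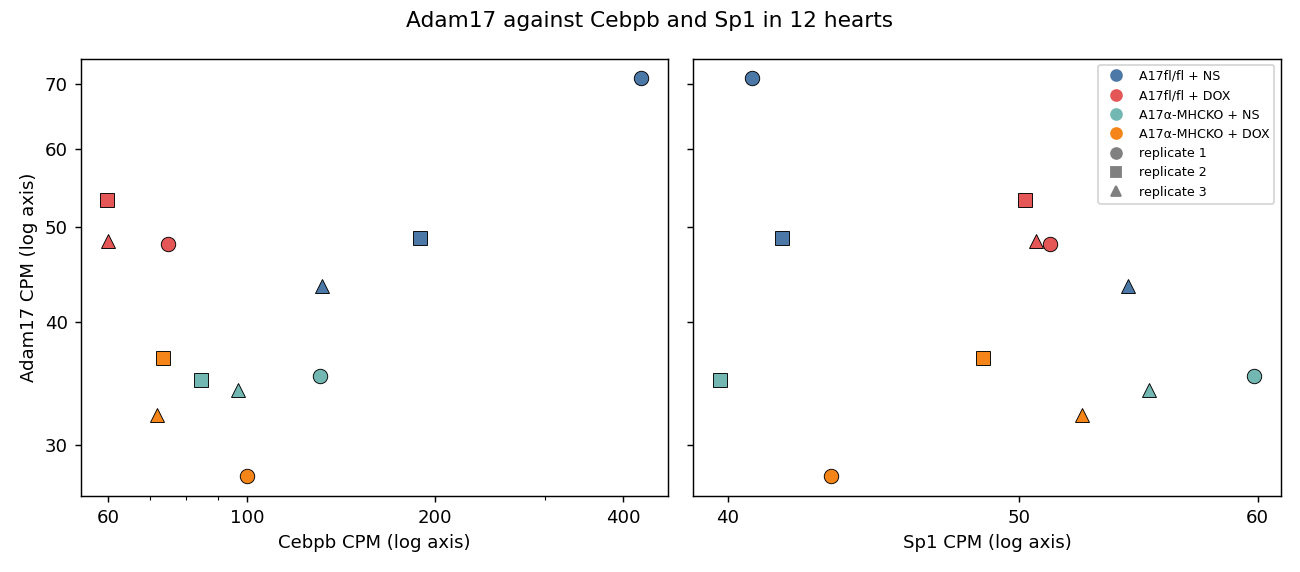
Adam17 CPM against Cebpb CPM (left) and Sp1 CPM (right) on log axes in 12 hearts, coloured by group and with symbols for the replicate. The A17fl/fl + NS heart at 427 CPM of Cebpb also has the highest Adam17, 70.9 CPM, and the other 5 A17fl/fl hearts lie between 43.6 and 53.2 CPM of Adam17.

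The genes whose levels ran most like each factor over the 12 libraries were named by Pearson r of log2 CPM, as a description. For Cebpb they were Dhx15 (0.955), Klhl2 (0.952) and Gm5844 (0.941), and without A17fl/fl + NS replicate 1 they were Tob2 (0.951), Mlxip (0.917) and Efcab2 (0.914). For Cebpd they were Poldip3 (0.964), Gm12543 (0.898) and Gm42501 (0.882), and Poldip3 stayed first without that library (0.957), followed by Eef2kmt (0.894) and Gemin4 (0.892). The low Cebpd library is in both sets, and Poldip3 is also at its lowest there. Spearman rho with Cebpd over the 12 libraries was 0.769 for Poldip3, 0.259 for Gm12543 and 0.776 for Gm42501. Without A17fl/fl + NS replicate 1 it was 0.7 for Poldip3, 0.545 for Eef2kmt and 0.718 for Gemin4. For Cebpg they were Kif2a (0.93), Fmr1 (0.916) and Prr5 (0.913), and without that library Kif2a (0.92), Pds5b (0.916) and Eva1c (0.914). For Cebpa they were Rab34 (0.914), Anpep (0.896) and Wipf1 (0.891), replaced without that library by Dapk2 (0.928), Lrat (0.899) and Itgbl1 (0.898). For Sp1 they were Cnot6l (0.887), Gm8258 (0.875) and Vwa3a (0.871), replaced by Tbx3 (0.937), Hpcal1 (0.934) and Qsox1 (0.907).

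Among the relatives of the C/EBP genes, other basic leucine zipper factors that can pair with them or share their sites, 11 of 12 listed genes were tested. After doxorubicin in A17fl/fl hearts 2 were within the study's limits, both lower, against 2.22% of all tested genes that were lower within them. Nfil3, a repressor of the circadian output, had a log2 fold change of -1.68 ± 0.621, and the stress factor Atf3 one of -1.46 ± 0.556 (edgeR adjusted p = 0.416 and 0.421). Nfil3 stood at 68.5 CPM in A17fl/fl + NS replicate 1 and at 6.62 to 21.7 CPM elsewhere, whereas Atf3 was highest in replicate 2 of that group (56.3 CPM). After saline Atf3 was also lower in the knockout by these limits, at -1.79 ± 0.561 (edgeR adjusted p = 0.338). Without A17fl/fl + NS replicate 1, Atf3 remained within the limits in both comparisons, at -1.64 ± 0.583 and -1.97 ± 0.587. Of all tested genes 0.646% and 0.841% were then lower within them. The lowest A17fl/fl + NS heart, at 10.5 CPM of Atf3, lay within the ranges of A17fl/fl + DOX (7.76 to 13.7 CPM) and A17α-MHCKO + NS (6.13 to 11.7 CPM). Without A17fl/fl + NS replicate 1, Dbp, a circadian activator, was within the limits as higher after doxorubicin in knockout hearts, at 1.93 ± 0.679. In that setting 0.878% of all tested genes were within them, in either direction. The knockout comparison after doxorubicin had 0 of 11 within the limits, against 0.205% of all tested genes. The median log2 fold change of the 11 after doxorubicin in A17fl/fl hearts was 0.13, beside -0.04 over all tested genes, and it turned to -0.24 without A17fl/fl + NS replicate 1.

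Of 17 Sp and KLF relatives of Sp1, which bind similar GC-rich sites, 13 were tested and 0 were within the study's limits in any of the 4 comparisons. After doxorubicin 12 of the 13 log2 fold changes were negative in A17fl/fl hearts (median -0.20, and -0.40 without A17fl/fl + NS replicate 1) and 13 of 13 in knockout hearts (median -0.15), where 55.5% and 49.5% of all tested genes were negative. No single member passed an adjusted p under 0.05. The genotype comparisons had medians of 0.07 after saline and 0.06 after doxorubicin, and the first turned to -0.12 without A17fl/fl + NS replicate 1.

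Of 22 listed cytokines, receptors and kinases that induce or regulate C/EBP factors, 19 were tested. After doxorubicin in A17fl/fl hearts 4 were lower within the study's limits and 0 higher, against 2.22% of all tested genes lower within them. After saline 5 were lower in the knockout, against 2.32%. The inflammatory cytokine Il1b had 428 CPM in A17fl/fl + NS replicate 1 and 0.684 to 2.15 CPM in the other 11 libraries. Socs3, the feedback inhibitor of cytokine signaling, had 233 CPM there and 7.86 to 18.2 CPM elsewhere. Il1r1, the receptor of interleukin-1, had 91.7 CPM there and 19.3 to 28.4 CPM elsewhere, and Trib1, which promotes the breakdown of C/EBPα, had 70.6 CPM there and 19.6 to 43.1 CPM elsewhere. Without that library 0 of the 19 were within the limits in either comparison.

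Acute-phase and inflammatory genes known as targets of C/EBPβ and C/EBPδ stood high in that same library. Of 21 listed, 17 were tested, and 14 were lower within the study's limits after doxorubicin in A17fl/fl hearts, against 2.22% of all tested genes, with a median log2 fold change of -3.61 beside -0.04 over all genes. After saline 15 were lower in the knockout, against 2.32% (median -4.07). The highest level of 15 of the 17 was in A17fl/fl + NS replicate 1, and the share of all tested genes highest in that library was not taken. Saa3, an acute-phase apolipoprotein, had 918 CPM there and 0.185 to 1.63 CPM in the other libraries, and the neutrophil attractant Cxcl1 had 64.5 CPM there and 0.370 to 3.51 CPM elsewhere. Serpina3n, a protease inhibitor, had 1114 CPM there, 148 CPM in A17fl/fl + NS replicate 3 and 18.0 to 60.4 CPM elsewhere. Without replicate 1 the count after doxorubicin was 1 (Serpina3n, -1.32 ± 0.544) and the median turned to 0.25, while 0.646% of all tested genes were then lower within the limits. Between the genotypes after saline the count was 2, Serpina3n (-1.77 ± 0.547) and the complement component C3 (-1.11 ± 0.303), against 0.841% of all genes. In knockout hearts 0 of 17 were within the limits after doxorubicin, against 0.658% of all tested genes, and 11 of 17 log2 fold changes were positive. S100a8 and S100a9 of this list are also neutrophil markers. In the remaining A17fl/fl hearts, Cebpb was lower after doxorubicin within the limits while 1 of these 17 target genes was.

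**Figure D5:**
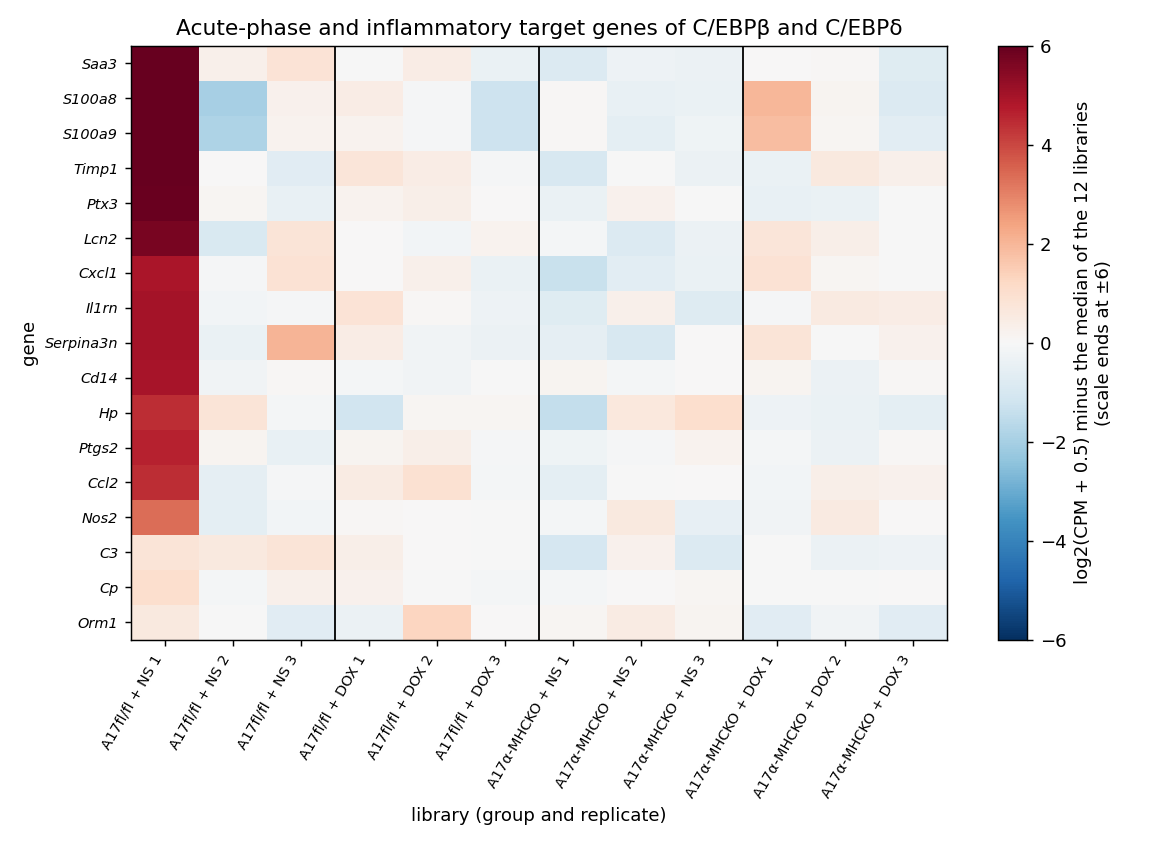
Levels of 17 acute-phase and inflammatory target genes of C/EBPβ and C/EBPδ (rows) in the 12 libraries (columns), as log2(CPM + 0.5) minus the median of each gene over the libraries, with the colour scale ending at ±6. The column of A17fl/fl + NS replicate 1 holds the highest value of 15 of the 17 genes.

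Of 14 adipogenic and metabolic targets of C/EBPα, 13 were tested. After doxorubicin 1 was lower within the study's limits in knockout hearts, against 0.286% of all tested genes, and 0 in A17fl/fl hearts. It was Fasn, the fatty acid synthase (-1.41 ± 0.619, edgeR adjusted p = 0.767). Fasn had 31.67 to 210.7 CPM in A17α-MHCKO + NS and 34.55 to 60.9 CPM in A17α-MHCKO + DOX, so the groups overlapped. Summed adipocyte markers were 20.1, 73.2 and 115 CPM in A17α-MHCKO + NS and 46.6, 20.9 and 36.0 CPM in A17α-MHCKO + DOX. Their part in the Fasn difference was not tested. The medians of these 13 were -0.70 in knockout hearts and 0.52 in A17fl/fl hearts. Without A17fl/fl + NS replicate 1 all 14 were tested, and the medians of this larger set were -0.43 and 0.01. None of the genes in the 5 lists passed an adjusted p under 0.05 in edgeR in any comparison.

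On the reference annotation (GENCODE M21, GRCm38) Cebpb is a single exon at chr2:167688915-167690418 on the + strand, and Tmem189 overlaps it by 908 bases on the opposite strand. Tmem189 had 270 to 819 fragments per library against 964 to 7404 for Cebpb. Cebpd is also a single exon, at chr16:15887286-15891031 on the + strand. Cebpa lies at chr7:35119293-35121928 on the + strand and its neighbour Cebpg at chr7:35046422-35056573 on the - strand, and Sp1 lies at chr15:102406143-102436404 on the + strand. How fragments in overlaps were assigned is not given in the sources used here, so the counts of Cebpb and Cebpd may hold some fragments of their partners.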

How the data were processed

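RNA from 12 hearts was analysed in 4 groups taken from the labels. The authors deposited fragment counts per gene, without normalization, and FPKM. Their notes name CASAVA 1.8, HISAT2, SAMtools 1.3.1 and edgeR on GRCm39, and the methods name a stranded paired-end kit, StringTie and TMM. Positions and promoters here come from GRCm38.

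Counts were tested in R 4.3.3 with edgeR 4.0.16 (filterByExpr, 16101 genes, TMM, quasi-likelihood F test, 1 mean per group over all 12 libraries) with Benjamini-Hochberg adjustment over all tested genes. Standard errors, approximate, were computed as |log2 fold change| divided by √F. DESeq2 1.42.0, the likelihood ratio test, RLE and upper-quartile scaling, other filters, the 2 groups alone, a replicate block and each library left out were alternatives. FPKM served for levels between genes and the FPKM limit of 1. The script was tested on simulated data.

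The genes and lists were chosen with earlier results of these data known. Named from the lists were at most 3 genes per list, comparison and direction, those with the smallest p within the study's limits. C3 was also named as 1 of 2 left after a library was removed, and Dbp, S100a8 and S100a9 were chosen after their values were seen. Each mouse gave 1 library, and no 2 libraries of a group were alike within sampling noise (chi-square per degree of freedom 11.6 to 179).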

Additional observations from a re-analysis of the deposited data

Results flagged for a closer look

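The knockout differences of Cebpb, Cebpd and Cebpg had opposite signs after saline and after doxorubicin. Those after doxorubicin were within their standard errors (0.34 ± 0.358, 0.47 ± 0.777 and 0.08 ± 0.120 on the log2 scale). For Cebpg so was that after saline (-0.10 ± 0.119). No share of all tested genes was taken for the rule that flagged them. By it, every knockout heart was below the A17fl/fl mean after saline and above it after doxorubicin, although the groups may overlap. For Cebpg this held only with A17fl/fl + NS replicate 1, since without it the A17fl/fl + NS mean was 39.4 CPM and A17α-MHCKO + NS replicate 1 stood at 40.3 CPM. The interaction was 1.60 ± 0.508 on the log2 scale for Cebpb, 1.82 ± 1.1 for Cebpd and 0.19 ± 0.169 for Cebpg, and none passed the adjustment over all genes in edgeR (adjusted p = 0.828, 0.844 and 0.851). Without A17fl/fl + NS replicate 1 they were 0.96, 1.23 and 0.14. Groups of 3 hearts were not tested for outlying values.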

How the results depend on the processing

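The number of the 5 genes with an adjusted p under 0.05 was 0 in each comparison. For doxorubicin in A17fl/fl hearts it became 1 (Cebpb) with DESeq2 and with the likelihood ratio test, and ran from 0 to 1 as each library was left out. For the knockout after saline it became 1 with DESeq2. Averaged over both genotypes, a comparison chosen after seeing the data, it became 2 with DESeq2 (Cebpb and Cebpg) and 1 with the likelihood ratio test. The number within the study's limits was 1 for doxorubicin in A17fl/fl hearts, 2 with the likelihood ratio test and with the 2 groups alone, and 1 to 2 as each library was left out. For the knockout after saline and for the average over both genotypes it was 1, and 0 to 1 as each library was left out, 0 without A17fl/fl + NS replicate 1. The shares of all tested genes were not taken for DESeq2, the likelihood ratio test or the 2 groups alone.

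As each library was left out, log2 fold changes near 0 changed sign. They ran from -0.26 to 0.11 for Adam17 after doxorubicin in A17fl/fl hearts, from -0.0493 to 0.10 for Sp1 averaged over both genotypes and from -0.264 to 0.0216 for Sp1 after doxorubicin in knockout hearts. For Cebpa they ran from -0.173 to 0.231 for the knockout after saline and from -0.33 to 0.069 for the interaction, and for Cebpd from -0.322 to 0.71 after doxorubicin in knockout hearts. Without the 2 libraries farthest from the median of the factor, 4 are left, and r with Adam17 changed sign in A17fl/fl hearts for Cebpa (-0.241), Cebpb (-0.878), Cebpd (-0.564) and Cebpg (-0.405) and in knockout hearts for Cebpa (-0.558). The causes were not tested.

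Replicate numbers did not pair the samples: deviations of same-numbered libraries had r of -0.104 to 0.219, over 0.1 in 3 of 18 pairs. With the replicate block, 50 of 50 results kept their direction and their side of the threshold, and Cebpb after doxorubicin in A17fl/fl hearts was -1.81 (edgeR adjusted p = 0.16). Counts of 313 or more per library lie behind each value of the 5 genes other than Cebpd in A17α-MHCKO + NS replicate 3.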
